A study of Mus musculus with 8 samples.

Results

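Glutathione, thioredoxin and NRF2 genes were followed in left ventricular RNA of mice on normal chow and of mice on high-fat food that contained L-NAME, which blocks nitric oxide synthases. The 47 genes were listed by name, and 43 of them had a named row in a count table of 41096 genes. Sod2, Glrx3, Txnrd1 and Gstp1 matched no named row and were not analysed here, but they may be among the rows that carry an ID without a name, which held 9.19% to 10.5% of counts. The cystine transporter gene Slc7a11 was too low for the test, so that 42 of 14875 tested genes are described with a fold change. The 8 libraries were 4 of chow and 4 of HFD+L-NAME (0.5% L-NAME, per the series design), all labelled left ventricle of strain C57BL/5NJ, from mice that were 12 weeks old when the 9 weeks on either food began. The series also describes cohorts with and without Nnt, but the labels give these libraries no genotype and no sex. Nothing in the labels says that animals were pooled or shared between libraries.

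Cells remove superoxide and hydrogen peroxide in steps. Superoxide dismutases turn superoxide into hydrogen peroxide, which glutathione peroxidases and peroxiredoxins reduce to water with electrons from glutathione and thioredoxin. Both carriers are recharged by reductases that use NADPH, and the pentose phosphate pathway is a cytosolic source of NADPH. NRF2, encoded by Nfe2l2, is held low by KEAP1 and, when released, activates many of these genes through the antioxidant response element. In heart muscle the mitochondria are a known site of superoxide formation, and several of these enzymes have a mitochondrial form.

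The core of the antioxidant response element, TGACNNNGC, was searched on both strands of RefSeq promoter windows (GRCm38.p6, from 250 bases before to 50 after the start of transcription). Of the 47 genes, 41 had a window and 10 of these, or 24.4%, held a match. Over all 27025 genes with a window the share was 14.0%. A match is a description of these letters and not a site at which NRF2 was measured. In Pgd and Srxn1 the core begins 3 and 28 bases after the annotated start. Whether the annotated starts are those used in heart was not tested, so a window may hold other sequence than promoter. For Pgd the annotated start directly follows a T-rich stretch that ends in cag, as the start of an internal exon would. Its match is therefore better read as sequence within the gene than as promoter, and it is kept in the counts given here. An element outside this window is not seen by the search, so a gene without a match may still have one. The 9 tested genes with a match are therefore not a list of NRF2 targets, and their matches are shown as sequence only. Capitals mark the core, each sequence runs 5′ to 3′ on the strand of the match, and 8 bases stand on either side.
Prdx1, chr4:116685458-116685482, minus strand: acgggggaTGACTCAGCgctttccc
Gclm, chr3:122245415-122245439, minus strand: gtgagagtTGACGGTGCgcccggga
G6pdx, chrX:74428921-74428945, plus strand: gtgtgcttTGACTGAGCtgacccgc
Nfe2l2, chr2:75704887-75704911, minus strand: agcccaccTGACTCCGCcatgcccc
Srxn1, chr2:152105544-152105568, minus strand: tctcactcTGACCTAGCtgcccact
Sod1, chr16:90220698-90220722, minus strand: cctgagtcTGACCACGCccaccttg
Pgd, chr4:149166063-149166087, minus strand: ttcagagcTGACATTGCactgatcg
Gsta3, chr1:21240456-21240480, plus strand: ctcaggcaTGACATTGCatttttct
Mgst1, chr6:138140463-138140487, minus strand: ccgcctccTGACCGTGCcaagcccc

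Library totals ran from 41852705 to 52053633 counts in chow and from 31522074 to 41047658 with HFD+L-NAME (two-sided exact permutation p = 0.0286, the smallest that 4 against 4 libraries allow). All 6 cardiomyocyte markers were present, at a summed 69828 to 83818 CPM (counts scaled to the library's TMM-adjusted total) in chow and 60308 to 78506 CPM with treatment. The sum was lowest in HFD+L-NAME 2 and 3 (64351 and 60308 CPM). All 6 had estimates below 0, of which 2 had an unadjusted p under 0.05 and 0 an adjusted one in edgeR. Of these 2, Tnnt2 (0.791-fold) did not overlap, whereas Actc1 (0.873-fold) did. The part of cardiomyocyte RNA in the results below was not tested. Libraries differed in transcripts of other tissue. For the atrial myosin light chain gene Myl7 the CPM were 290.4 (chow 1), 283 (chow 3), 686 (HFD+L-NAME 2), 293 (HFD+L-NAME 3) and 216 (HFD+L-NAME 4). They were 0.714 for chow 2, 1.02 for chow 4 and 10.2 for HFD+L-NAME 1. The summed 6 atrial markers ran from 179 to 2102 CPM in chow and from 201 to 4168 CPM with treatment. Plin1, the coat protein of fat droplets, was highest in HFD+L-NAME 2 and 3 (12.0 and 8.73 CPM, at most 2.57 CPM elsewhere), and the summed 8 adipocyte markers ran from 462 to 585 CPM in chow and from 456 to 775 CPM with treatment. Nearly all of that sum was Fabp4 (507 ± 50.8 CPM in chow and 574 ± 139 with treatment, SD, n = 4), which capillary endothelium also expresses. All 7 tested adipocyte markers had estimates above 0, of which 5 had an unadjusted p under 0.05 and 0 an adjusted one in edgeR. Those 5 were fitted as 6.56-fold for Plin1, 5.79-fold for Adipoq, 6.83-fold for Cidec, 6.83-fold for Lep and 10.3-fold for Cfd, which alone did not overlap. The brown fat gene Ucp1 reached 11.5 CPM and 5.03 CPM in treated libraries 2 and 3. It was 0 in both other treated libraries and at most 0.335 CPM in chow. The other brown fat genes of the list did not follow Ucp1. Elovl3 was highest in chow 1 (0.169 CPM). Cidea ran from 23.8 to 36.0 CPM in chow and from 37.5 to 43.8 CPM with treatment, highest in HFD+L-NAME 1. The Cidea groups did not overlap (edgeR adjusted p = 0.259). All 4 smooth muscle markers had estimates above 0, with sums of 108 to 247 CPM in chow and 167 to 384 with treatment. In edgeR 3 of them had an unadjusted p under 0.05 and 0 an adjusted one. Myh11 (2.36-fold) and Tagln (2.63-fold) did not overlap, whereas Cnn1 (2.81-fold) and Acta2 (1.29-fold) did. The part of smooth muscle in the results below was not tested. These values are repeated beside the genes that they touch.

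Setting the treated libraries against chow asks which of these transcripts differ after high-fat food with L-NAME. None of the 8 libraries had high-fat food or L-NAME alone, so their parts cannot be told apart. With edgeR's quasi-likelihood test and Benjamini-Hochberg adjustment over all tested genes, 0 of the 42 genes passed 0.05, where 0.0134% of all tested genes did. Their adjusted p-values ran from 0.365 to 0.998. An unadjusted p under 0.05 was found for 4 of the 42, or 9.52%, against 9.56% of all tested genes, and these were Prdx2, Prdx6, Taldo1 and Gstm2. All of them averaged lower with treatment, a direction found at an unadjusted p under 0.05 in 4.54% of all tested genes, while 5.02% averaged higher at that p. The count of 4 became 9 without HFD+L-NAME 1 and 2 without chow 2. In Prdx6 alone, 1 of 42, did the groups not overlap, and over all tested genes this share was 5.98%, made of 3.24% lower and 2.74% higher with treatment. DESeq2's Wald test and limma-voom called 0 of the 42 as well, against 0.963% and 0.0% of the genes they adjusted.

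The estimates were close to 0 for most of the 42 genes. Their log2 fold changes (HFD+L-NAME against chow) ran from -0.46 for Gsta3 to 0.43 for Gpx3, with a median of -0.04, while the median of all tested genes was 0.0024. The median size without regard to sign was 0.14 in the 42 genes and 0.14 in all tested genes. Below 0 lay 28 of the 42, or 66.7%, against 49.5% of all tested genes. For 34 of the 42 the 95% interval lay within 0.5 of 0, that is within a 1.41-fold difference either way. Of all tested genes 50.5% had an interval within these bounds. The 8 genes whose intervals reached beyond 0.5 were Sod3, Gpx3, Txnip, Gsta3, Mgst1, Nqo1, Cbr3 and Hmox1, and of these Gsta3, Cbr3 and Hmox1 reached beyond 1. Over all tested genes 75.0% had an interval within 1 of 0. The 9 tested genes with the core of the response element in their window had 3 estimates above and 6 below 0, from -0.46 to 0.18. As these 9 are not a list of NRF2 targets, this is no measure of NRF2 activity.

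**Figure D1:**
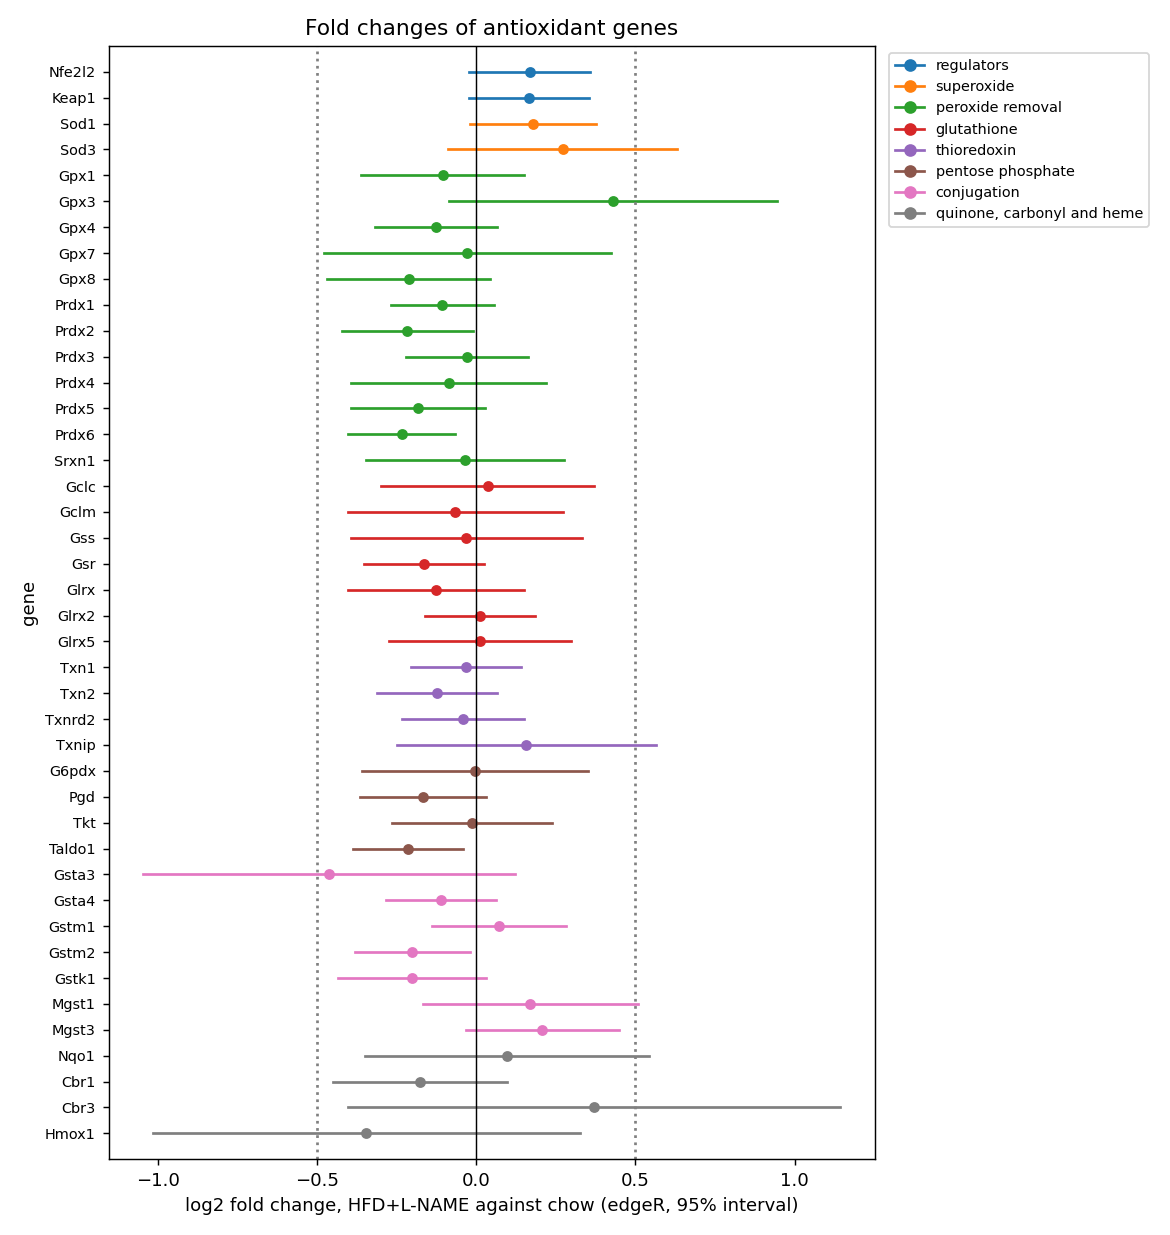
Log2 fold change of HFD+L-NAME against chow (x axis, points) with its 95% interval from edgeR (lines) for the 42 tested genes (y axis), coloured by system. Dotted lines mark -0.5 and 0.5. For 34 genes the interval lies between them, and the widest intervals are those of Cbr3, Hmox1 and Gsta3.

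Levels were compared between genes as CPM per kilobase of the principal transcript in GENCODE M21, an annotation of another mouse strain, so these levels are approximate. In chow they spanned 1.76 for Cbr3 to 569 for Gpx4. There were 8 genes above 100 CPM per kilobase: Gpx4 (569 ± 44.8, SD, n = 4), Txnip (400.5 ± 68.3), Prdx5 (341 ± 26.3), Sod1 (312 ± 12.3), Prdx2 (231 ± 21.2), Mgst3 (216 ± 1.04), Prdx3 (206 ± 7.34) and Gpx3 (117 ± 37.8). In this order the neighbours Txnip and Prdx5, Prdx5 and Sod1, and Prdx2 and Mgst3 differed by less than their summed SDs. At the other end 12 genes stood below 10 CPM per kilobase, among them G6pdx (3.07 ± 0.479) and the glutamate-cysteine ligase genes Gclc (4.54 ± 0.659) and Gclm (1.87 ± 0.327). The ligase genes of glutathione synthesis thus stood far below Gpx4 and Prdx5 per length, although other peroxidase genes were also low, such as Gpx7.

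**Figure D2:**
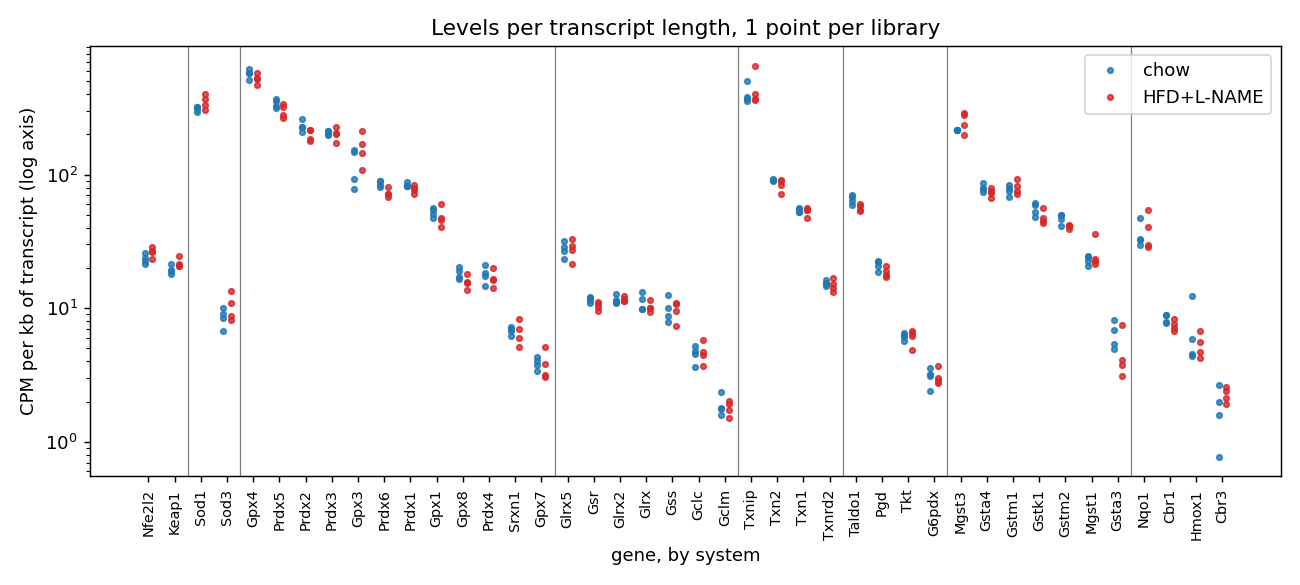
CPM per kilobase of transcript (y axis, log scale) for the 42 tested genes (x axis), grouped by system and ordered within it by the chow mean, with a point for each of 4 chow (blue) and 4 HFD+L-NAME (red) libraries. Levels span 1.76 to 569 in the chow means, while the points of both groups lie close together for nearly all genes.

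Nfe2l2 and Keap1, the regulators, averaged slightly higher with treatment and neither passed. Nfe2l2 stood at 53.3, 59.1, 55.6 and 63.8 CPM in chow 1 to 4, whereas HFD+L-NAME 1 to 4 had 70.7, 64.9, 58.2 and 66.7 CPM. Keap1, whose product marks NRF2 for breakdown, stood at 64.6, 78.0, 68.6 and 69.4 CPM in chow and at 88.3, 74.3, 77.0 and 75.2 CPM with treatment. The groups overlapped in both genes. Their log2 fold changes were 0.17 ± 0.09 and 0.17 ± 0.09 (SE; edgeR adjusted p = 0.568 and 0.571), with intervals from -0.02 to 0.36 and from -0.02 to 0.35. Without HFD+L-NAME 1 the Keap1 estimate was 0.11. In the annotation used here 14.1% of the Keap1 transcript lies under Gm16754 on the opposite strand, and the counting strand is not given in the sources used here.

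Of the superoxide dismutases, cytosolic Sod1 and extracellular Sod3 had a named row. Sod1 had 189, 198, 205 and 206 CPM in chow and 237, 215, 196 and 257 CPM with treatment. HFD+L-NAME 3 lay inside the chow range and the other treated libraries above it (log2 fold change 0.18 ± 0.09, SE; edgeR adjusted p = 0.563). The estimate was 0.11 without HFD+L-NAME 4 and 0.31 without HFD+L-NAME 2 and 3 (edgeR adjusted p = 0.703 and 0.426). Sod3 had 31.4, 33.8, 37.7 and 25.1 CPM in chow and 30.6, 50.1, 41.1 and 32.8 CPM with treatment. The high values were those of HFD+L-NAME 2 and 3, the libraries with the most Plin1. These libraries also had the most of the smooth muscle gene Myh11 (76.8 and 142 CPM, at most 69.5 CPM elsewhere). The Sod3 log2 fold change was 0.27 ± 0.16 (edgeR adjusted p = 0.640), 0.12 without HFD+L-NAME 2 alone and -0.01 without both libraries. It was 0.14 with the atrial score as a covariate. The parts of fat, smooth muscle and atrial tissue in the Sod3 values were not tested.

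Among 12 genes of peroxide removal, 11 had an estimate below 0 and Gpx3 stood apart above it (median -0.11, range -0.23 to 0.43). The median of the 6 cardiomyocyte markers was -0.15, with all 6 below 0, and their part in the peroxide genes was not tested. In bulk tissue fewer cells of a type and less RNA per cell cannot be told apart. Summed over the 6 peroxiredoxins, the level ran from 914 to 1040 CPM per kilobase in chow and from 775 to 936 with treatment, which overlap.

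Prdx6 encodes the 1-cysteine peroxiredoxin that can also act on lipid peroxides. It stood at 201, 212, 193 and 213 CPM in chow and at 171, 163, 170.4 and 192 CPM with treatment. All treated libraries lay below all chow libraries, although HFD+L-NAME 4 (192 CPM) came close to chow 3 (193 CPM). The log2 fold change was -0.23 ± 0.08 (SE, n = 4 each), with an interval from -0.40 to -0.07, an unadjusted p of 0.0108 in edgeR and an adjusted p of 0.365. It stayed negative without any single library, from -0.28 to -0.20, and was -0.16 within the 5 libraries with atrial transcripts.

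Prdx2, the abundant cytosolic peroxiredoxin, had 366, 365, 338 and 419.5 CPM in chow and 347, 298, 289 and 347 CPM with treatment. HFD+L-NAME 1 and 4 lay inside the chow range and the other treated libraries below it (log2 fold change -0.22 ± 0.09, SE; edgeR adjusted p = 0.499). Without HFD+L-NAME 2 and 3 the log2 fold change was -0.10. Exons of Junb and Rnaseh2a on the opposite strand cover 21.7% of the Prdx2 transcript, so reads of these genes may be counted with it.

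The peroxiredoxins of the mitochondria were Prdx3 and Prdx5, the latter also found in peroxisomes and cytosol. Prdx3 had 294, 316, 296 and 311 CPM in chow and 336, 299, 256 and 302 CPM with treatment, with treated libraries on both sides of chow. Its log2 fold change was -0.03 ± 0.09 (SE; edgeR adjusted p = 0.952), and its interval, -0.22 to 0.16, holds only small differences. Prdx5 had 397, 449, 409 and 468 CPM in chow and 405, 354, 332 and 426 CPM with treatment (log2 fold change -0.18 ± 0.10, edgeR adjusted p = 0.585). HFD+L-NAME 2 and 3 were the lowest libraries, and the estimate was -0.049 without them. Of the Prdx5 transcript, 32.4% lies under Trmt112 on the opposite strand. Log2 fold changes were -0.11 for cytosolic Prdx1, -0.09 for Prdx4 of the endoplasmic reticulum and -0.04 for Srxn1, the sulfiredoxin that repairs over-oxidised peroxiredoxins, with overlapping groups in all of them.

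Gpx4, the glutathione peroxidase that reduces lipid peroxides in membranes, had 487, 589.8, 552 and 555 CPM in chow and 510.3, 496, 446 and 548 CPM with treatment. The groups overlapped (log2 fold change -0.13 ± 0.09, SE; edgeR adjusted p = 0.690), and the estimate was -0.074 without HFD+L-NAME 3, -0.084 without chow 2 and -0.042 without HFD+L-NAME 2 and 3. Gpx1, the soluble form of cytosol and mitochondria, had 58.2, 60.4, 54.2 and 50.6 CPM in chow and 50.7, 64.6, 43.3 and 49.0 CPM with treatment, with the highest and the lowest value both in treated libraries (log2 fold change -0.10 ± 0.12, edgeR adjusted p = 0.825). Its estimate was -0.23 without HFD+L-NAME 2, -0.027 without HFD+L-NAME 3 and -0.062 without chow 2. Gpx7 and Gpx8, which work in the endoplasmic reticulum, had log2 fold changes of -0.03 and -0.21.

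Gpx3, the secreted glutathione peroxidase of plasma, had the largest positive estimate of the 42 genes. It stood at 242, 124, 235 and 148 CPM in chow and at 172, 336, 268 and 232 CPM with treatment. Within each group its high libraries were those with Myl7 above 200 CPM, namely chow 1 and 3 and HFD+L-NAME 2, 3 and 4, and the groups overlapped. The log2 fold change was 0.43 ± 0.23 (SE, n = 4 each; edgeR adjusted p = 0.604), with an interval from -0.08 to 0.94. It was 0.26 without HFD+L-NAME 2, 0.28 without chow 2, 0.23 within the 5 libraries with atrial transcripts, 0.16 with the atrial score as a covariate and 0.11 without HFD+L-NAME 2 and 3.

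**Figure D3:**
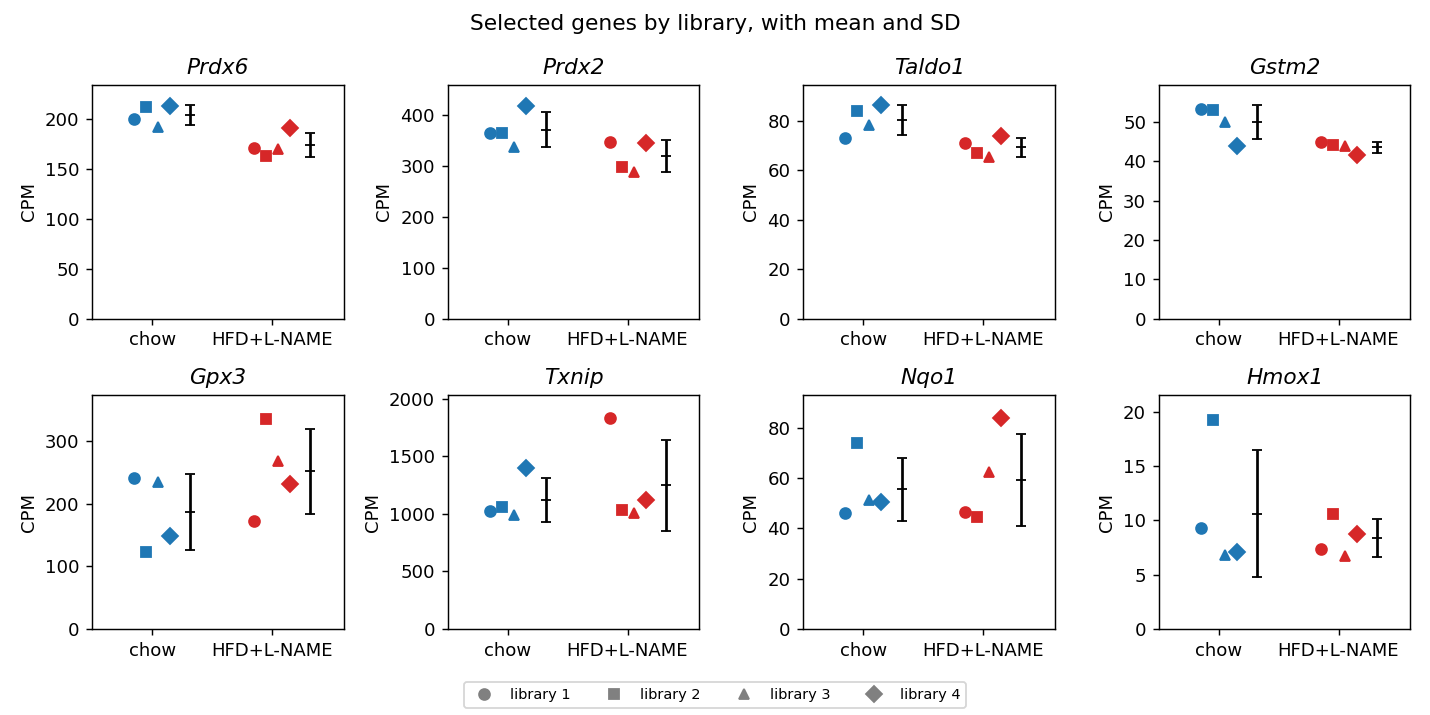
CPM (y axis, from 0) of 8 genes in each library of chow (blue) and HFD+L-NAME (red), with the marker shape giving the library number and the bar the mean with SD (n = 4). In Prdx6 all red points lie below all blue points. Gpx3 is highest in HFD+L-NAME 2 and 3, followed by chow 1 and 3, Txnip is highest in HFD+L-NAME 1 and Hmox1 in chow 2.

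The 7 tested genes that make, recycle or use glutathione in exchange reactions had estimates from -0.16 to 0.04, with 0 past the threshold. Gclc and Gclm encode the catalytic and the modifier subunit of the ligase that limits glutathione synthesis. Gclc had 17.9, 12.5, 15.5 and 16.3 CPM in chow and 19.7, 16.1, 15.2 and 12.7 CPM with treatment. Gclm had 9.86, 9.93, 8.88 and 13.1 CPM in chow and 10.6, 11.2, 9.67 and 8.37 CPM with treatment. In both genes the groups overlapped, and the log2 fold changes were 0.04 ± 0.15 and -0.07 ± 0.15 (SE; edgeR adjusted p = 0.965 and 0.934).

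The gene Gsr, for the reductase that restores glutathione with NADPH, had 32.5, 31.9, 30.9 and 29.3 CPM in chow and 25.4, 27.3, 28.8 and 29.8 CPM with treatment. Only HFD+L-NAME 4 of the treated libraries reached the chow range (log2 fold change -0.16 ± 0.09, SE; edgeR adjusted p = 0.582). For the glutathione synthetase gene Gss the estimate was -0.03. The 3 glutaredoxin genes measured, Glrx of the cytosol, Glrx2 of the mitochondria and Glrx5, which serves iron-sulfur cluster assembly, ran from -0.12 to 0.01. Slc7a11, which brings in cystine, had 0, 0, 6 and 1 counts in chow and 0, 1, 8 and 6 counts with treatment, too few for a fold change.

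Thioredoxin genes did not pass. Txn1 had 59.5, 57.8, 55.1 and 55.0 CPM in chow and 57.3, 56.8, 49.3 and 58.9 CPM with treatment (log2 fold change -0.03 ± 0.08, SE; edgeR adjusted p = 0.936). Mitochondrial Txn2 had 188, 187, 189 and 184 CPM in chow and 187, 170.0, 145 and 183 CPM with treatment, with HFD+L-NAME 3 the lowest (log2 fold change -0.12 ± 0.09, edgeR adjusted p = 0.693) and an estimate of -0.051 without it. Txnrd2, the mitochondrial reductase of TXN2, had 41.9, 43.3, 44.2 and 46.3 CPM in chow and 48.4, 38.2, 40.9 and 43.3 CPM with treatment. Its treated libraries lay on both sides of chow (log2 fold change -0.04 ± 0.09, edgeR adjusted p = 0.925).

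Txnip, whose product binds thioredoxin and restrains glucose uptake, was marked by single libraries. It had 1027, 1058, 989.9 and 1402 CPM in chow and 1833, 1036, 1005 and 1117 CPM with treatment, so that chow 4 and HFD+L-NAME 1 stood above all others. The log2 fold change was 0.16 ± 0.19 (SE; edgeR adjusted p = 0.836), and -0.08 without HFD+L-NAME 1. Gm15441 overlaps 21.6% of the Txnip transcript on the opposite strand and had its highest values in the same libraries, 1.74 CPM in chow 4 and 1.77 CPM in HFD+L-NAME 1, against 0.394 to 1.30 CPM in the others. Its counts, 13 to 82 per library, were few beside the 33139 to 66252 of Txnip.

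The 4 pentose phosphate genes had estimates below 0, though that of G6pdx was within 0.01 of 0 and turned to 0.0094 when libraries were scaled by total counts only. G6pdx, the entry enzyme, had 8.26, 9.45, 6.41 and 8.49 CPM in chow and 7.32, 9.80, 7.91 and 7.52 CPM with treatment. Its groups overlapped throughout, and the means were 8.15 ± 1.27 and 8.14 ± 1.13 CPM (SD, n = 4 each; edgeR adjusted p = 0.998). Taldo1, the transaldolase of the non-oxidative arm, had 72.9, 84.0, 78.2 and 86.3 CPM in chow and 71.0, 67.0, 65.4 and 73.7 CPM with treatment. HFD+L-NAME 4 alone lay inside the chow range (log2 fold change -0.21 ± 0.08, SE; edgeR adjusted p = 0.422). The estimate was -0.15 without HFD+L-NAME 2 and 3. Pgd, which yields the other NADPH of the oxidative arm, and the transketolase gene Tkt had log2 fold changes of -0.17 and -0.01.

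Glutathione S-transferases join glutathione to lipid aldehydes and foreign compounds. Gstm2 had 53.2, 53.1, 49.8 and 43.9 CPM in chow and 44.9, 44.0, 43.8 and 41.4 CPM with treatment, where chow 4 lay among the treated libraries (log2 fold change -0.20 ± 0.08, SE; edgeR adjusted p = 0.474). Its paralog Gstm1 had 97.3, 109, 87.3 and 102 CPM in chow and 119, 97.8, 92.7 and 105 CPM with treatment (log2 fold change 0.07 ± 0.10, edgeR adjusted p = 0.863). Without HFD+L-NAME 1 the Gstm1 estimate was 0.00018, and without single other libraries it reached 0.12. The Gstm genes are similar in sequence, so their counts may share reads. Gsta4, whose product clears the lipid aldehyde 4-hydroxynonenal, had 77.5, 76.7, 72.7 and 84.6 CPM in chow and 77.4, 74.1, 71.6 and 65.6 CPM with treatment (log2 fold change -0.11 ± 0.08, edgeR adjusted p = 0.701), and its estimate was -0.066 without HFD+L-NAME 4 and -0.067 without chow 4.

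The microsomal gene Mgst3 varied far more with treatment than in chow. It had 238, 235, 237 and 238 CPM in chow, a coefficient of variation of 0.482%, and 316, 257, 217 and 305 CPM with treatment, one of 16.6% (log2 fold change 0.21 ± 0.11, SE; edgeR adjusted p = 0.585). The chow coefficient was the lowest of the 42 genes, while the median with treatment was 11.8%. The chow counts of Mgst3 were 9919 to 12628 per library, and counting error at this depth was not set against that coefficient. The close chow values are therefore not read as true uniformity. Mgst3 was picked after its values were seen, so the contrast is a description only. Mgst1 stood at 41.8 CPM in HFD+L-NAME 2 and at 24.0 to 28.7 CPM in the 7 other libraries, and its log2 fold change of 0.17 was -0.03 without that library, which also had the most Plin1 and Ucp1. HFD+L-NAME 2 also had the most Myl7 (686 CPM), and the parts of fat and atrial tissue in this value were not tested. The means of Gsta3 were 9.26 ± 2.10 CPM for chow and 6.74 ± 2.87 CPM for the treated libraries (SD, n = 4), of which HFD+L-NAME 1 lay inside the chow range, and Gstk1, of mitochondria and peroxisomes, had a log2 fold change of -0.20.

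Nqo1 and Hmox1, often read as markers of NRF2 activity, had a wide spread within groups. The quinone reductase gene Nqo1 had 46.2, 74.0, 51.4 and 50.5 CPM in chow and 46.5, 44.4, 62.7 and 84.0 CPM with treatment, with a high library in each group (log2 fold change 0.10 ± 0.20, SE; edgeR adjusted p = 0.924). The heme oxygenase gene Hmox1 had 9.29, 19.2, 6.84 and 7.13 CPM in chow and 7.38, 10.6, 6.70 and 8.75 CPM with treatment. Its log2 fold change was -0.35 ± 0.31 (edgeR adjusted p = 0.773) and 0.11 without chow 2. The carbonyl reductase genes Cbr1 and Cbr3 had log2 fold changes of -0.18 and 0.37, Cbr3 at a mean of 2.05 ± 0.930 CPM in chow.

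**Figure D4:**
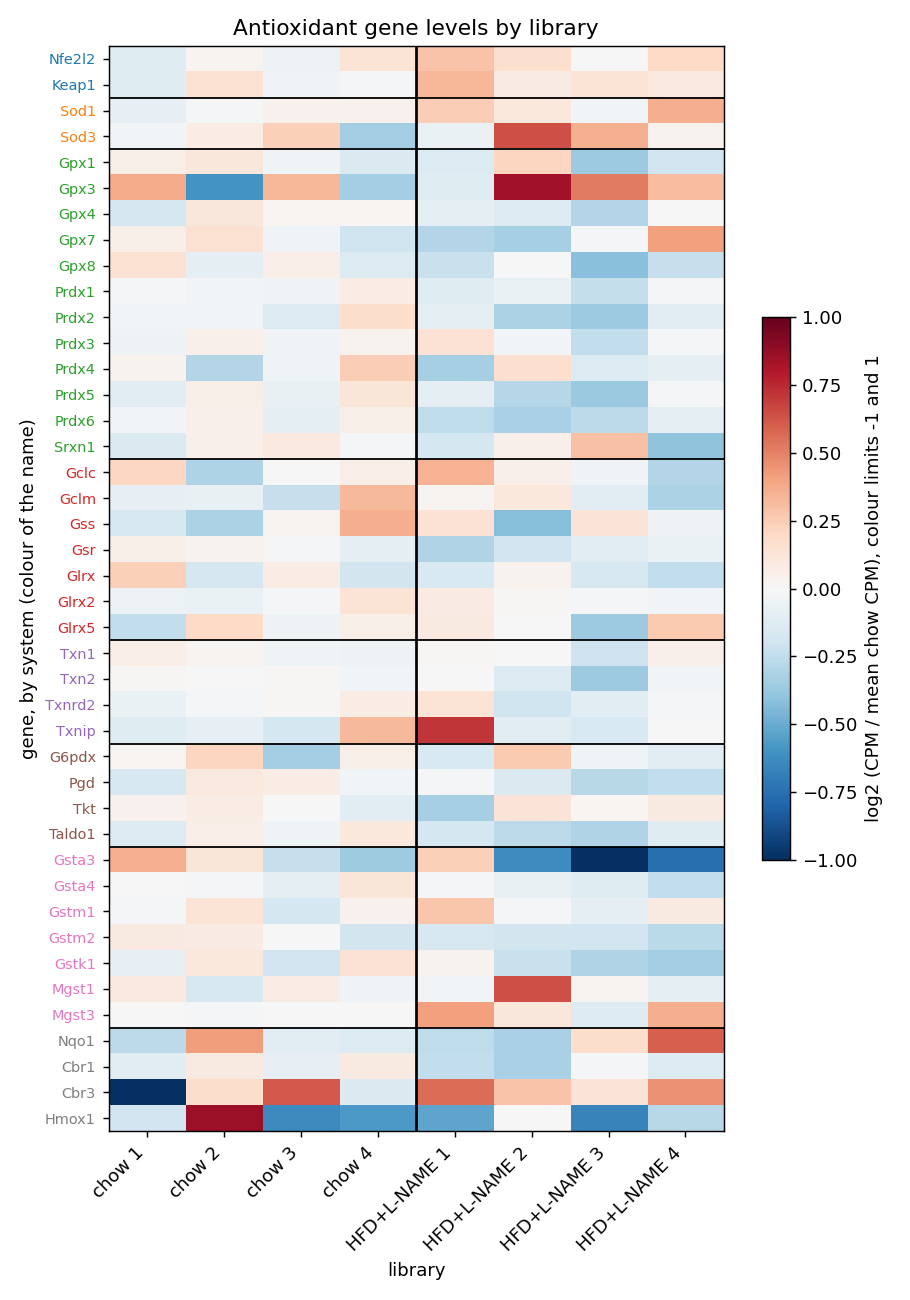
Log2 of CPM over the chow mean for the 42 tested genes (rows, by system) in 8 libraries (columns), with colour limits at -1 and 1. Most cells are pale. Deep colours include Gpx3, Sod3 and Mgst1 in HFD+L-NAME 2, Txnip in HFD+L-NAME 1, Hmox1 in chow 2, Gsta3 in HFD+L-NAME 2, 3 and 4 and the low-level gene Cbr3 in libraries of both groups.

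The spread between libraries was moderate. The coefficient of variation had a median of 8.02% in chow and 11.8% with treatment over the 42 genes, and it was larger with treatment in 31 of them. This count was not compared with all tested genes, so it cannot be read as a trait of the 42. In 11 genes it exceeded 20% in either group, and the highest values were 55.0% for Hmox1 in chow and 42.7% for Gsta3 with treatment.

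A list of 123 further genes of these systems gave 102 tested genes, of which edgeR called 0. An unadjusted p under 0.05 was found for 16 of them, 9 higher and 7 lower, or 15.7% beside the 9.56% of all tested genes. The lists were chosen with earlier results of these data known, so the larger share cannot be read as a trait of these systems. The median log2 fold change of the 102 was -0.00042, and in 7, or 6.86%, the groups did not overlap, 3 higher and 4 lower, which is near the 5.98% of all tested genes.

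Catalase, encoded by Cat, breaks down hydrogen peroxide in peroxisomes without glutathione or thioredoxin. It stood at 234, 276, 278 and 266 CPM in chow and at 293, 303, 320.1 and 316 CPM with treatment, with no overlap (log2 fold change 0.23 ± 0.08, SE; edgeR adjusted p = 0.384). For Sesn2, a sestrin, it was -0.68 ± 0.27. Among genes that can form superoxide or hydrogen peroxide, Xdh, the xanthine dehydrogenase gene, had 91.9, 127, 99.9 and 101 CPM in chow and 211, 127, 155 and 121 CPM with treatment. HFD+L-NAME 1 was the highest library and the groups overlapped (log2 fold change 0.55 ± 0.17, edgeR adjusted p = 0.317). The NADPH oxidase gene Nox4 ran from 0.455 to 1.03 CPM in chow. Treated libraries 2 and 3, with the most Plin1 and Myh11, had 2.68 and 2.70 CPM of it, and treated libraries 1 and 4 had 0.972 and 0.793 CPM.

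Me1, the cytosolic malic enzyme that makes NADPH, had 106, 122, 128 and 110.5 CPM in chow and 132, 161, 153 and 156 CPM with treatment. All treated libraries lay above chow (log2 fold change 0.37 ± 0.09, SE; edgeR adjusted p = 0.237), and the estimate was 0.31 without HFD+L-NAME 2 and 3. The folate enzyme gene Mthfd1 had a log2 fold change of -0.29 ± 0.11. Lancl1, which encodes a glutathione-binding protein, had 23.0, 25.0, 23.9 and 26.4 CPM in chow and 19.99, 17.9, 18.2 and 18.4 CPM with treatment. All treated libraries lay below chow (log2 fold change -0.40 ± 0.09, edgeR adjusted p = 0.232). In the glutathione list the exporter gene Abcc1 and Slc3a2, the partner chain of SLC7A11, both had 0.30, with SE of 0.10 and 0.13.

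Among the regulators Nfe2l1, the NRF2 relative that governs proteasome genes, had a log2 fold change of 0.21 ± 0.08 with no overlap, the small MAF gene Maff 0.42 ± 0.15, and Dpp3, whose product can bind KEAP1, -0.27 ± 0.08 with no overlap. The methionine sulfoxide reductase genes Msrb1 and Msrb3 had -0.26 ± 0.08, without overlap, and 0.27 ± 0.11. Nqo2, a quinone reductase, had -0.26 ± 0.10 without overlap, and the biliverdin reductase gene Blvra -0.30 ± 0.13. Of 12 further conjugation genes 0 had an unadjusted p under 0.05 in edgeR.

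In the authors' deposited table, made with DESeq2, 0 of the 42 genes had an adjusted p under 0.05, against 1.1% of all genes with an adjusted p there. The smallest in the authors' deposited table was 0.189, for Prdx6. Of the further genes, the authors' deposited table lists Me1 at 0.37 (adjusted p = 0.0239), Lancl1 at -0.40 (0.0441) and Xdh at 0.55 (0.0450), each a log2 fold change.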

How the data were processed

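Left ventricular RNA of 8 mice was sequenced, and the authors deposited raw counts per gene. The submitters' processing notes list STAR 2.6, DESeq2 1.22.1, bcl2fastq 1.8.4 and Trim Galore 0.4.0 with a human build, although the row IDs belong to the annotation of mouse strain C57BL/6NJ, so no coordinates were taken from them. For the counter and strand, the setting is not given in the sources used here. The authors also deposited log2 fold changes, p-values and adjusted p-values, which gave the gene names. Their 24 columns of normalised values per sample, over 3 tables, were not used. Rows with an ID but no gene name held 9.19% to 10.5% of a library's counts and were kept.

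Libraries were matched to columns by the number in their titles. Replicate numbers follow accession order and pair no libraries. The labels do not say whether libraries came from separate litters or batches. The p-values set the group difference against the spread between these libraries, which are taken as independent. All library pairs of a group differed beyond counting error (chi-square per degree of freedom 25.3 to 64.7).

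The deposited counts entered edgeR 4.0.16 (R 4.3.3; quasi-likelihood test, TMM, filterByExpr with minimum count 10, Benjamini-Hochberg adjustment, threshold 0.05), and CPM use TMM-scaled totals. SE is the log2 fold change over the square root of F. Alternatives used DESeq2 1.42.0, limma 3.58.1, other scalings and filters, thinning, and fewer libraries. The covariate is the mean log2 (CPM + 0.5) of 6 atrial markers. The fit was checked on simulated data.

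The genes, lists and alternatives were chosen with earlier results of these data known. Values in every library are given for genes without overlap, with an unadjusted p under 0.05, or named in the rule as central; Mgst3 and Slc7a11 were added after their values were seen. Further pathway genes are those with an unadjusted p under 0.05, up to 3 per list. Gm15441 was named for its overlap with Txnip.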

Additional observations from a re-analysis of the deposited data

Results flagged for a closer look

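Within each group of 4 libraries, the highest or lowest library was compared with the others by Dixon's test at 95%, over 84 sets of gene and group, where chance alone gives about 1 in 20. In 4 sets a library stood apart. Txnip stood at 1402 CPM in chow 4 and at 1833 CPM in HFD+L-NAME 1. Prdx1 stood at 202 CPM in chow 4, against 188 to 189.9 CPM in the other chow libraries. Mgst1 stood at 41.8 CPM in HFD+L-NAME 2.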

How the results depend on the processing

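Over 18 alternative fits and at a false discovery rate of 0.1 the count of the 42 genes called was 0 in each, and the smallest adjusted p of any of them was 0.201 (Prdx6, DESeq2). Of the 25 genes given in every library by the rule, 15 kept their direction in all 18 fits. For the other 10 the direction turned at least once, none being past the threshold. Without HFD+L-NAME 2 and 3, log2 fold changes were -0.013 for Sod3, 0.070 for Prdx3, 0.035 for Txn1 and 0.064 for Txnrd2. Within the 5 libraries with atrial transcripts they were -0.18 for Gclc, 0.060 for Gclm, 0.20 for G6pdx and 0.11 for Hmox1. With the atrial score they were 0.019 for Prdx3, 0.0058 for Gclm, 0.0057 for Txnrd2 and 0.031 for G6pdx. G6pdx had 0.00051 with limma-voom, 0.0094 with total counts only and 0.0083 after thinning. Leaving out single libraries gave -0.088 to 0.039 for Prdx3, -0.080 to 0.13 for Gclc, -0.13 to 0.062 for Gclm, -0.060 to 0.022 for Txn1, -0.10 to 0.010 for Txnrd2, -0.085 to 0.28 for Txnip, -0.10 to 0.079 for G6pdx, -0.12 to 0.27 for Nqo1 and -0.51 to 0.11 for Hmox1. An unadjusted p under 0.05 was found for 2 to 9 of the 42 in these fits without 1 library, the 9 without HFD+L-NAME 1, and for 2 to 7 in the other fits; the cause was not tested. Over all genes, calls at 0.05 were 2 with edgeR, 161 with DESeq2, 0 with limma-voom, 34 without the low-count filter, 1 with the robust fit and after thinning, 0 to 3 without single libraries and 0 in each fit on libraries chosen by marker or with the atrial score. No paired analysis was possible because the labels give no replicate numbers. Depth was lower with treatment; thinning all libraries to the smallest total also gave 4 of the 42 an unadjusted p under 0.05.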
